A study of Mus musculus with 8 samples.

Results

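Keratins are the intermediate filament proteins of epithelial cells, and each filament pairs an acidic type I with a basic type II keratin. Here 7 genes were followed in mouse liver: the type I keratin gene Krt23, the hepatocyte keratin pair Krt8 (type II) and Krt18 (type I), and 4 genes used as markers of cholangiocytes, the cells that line bile ducts, namely Krt7, Krt19, Epcam and Sox9. They were picked by symbol from the deposited table of 22013 genes, all 7 were found, and all 7 were among the 12207 genes with enough counts to be tested. The set was proposed with the resmetirom contrast already known, and Krt23 was set against the others for its pattern, so the values of these 7 genes in that contrast are a description with no test.

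Poly(A)-selected liver RNA was sequenced in 8 libraries, 4 titled as controls and 4 as resmetirom. The series describes mice given a diet of fructose, palmitate and cholesterol for 12 weeks to model metabolic dysfunction-associated steatohepatitis, and resmetirom, an agonist of the beta thyroid hormone receptor, injected intraperitoneally at 5 mg/kg/day over 8 weeks from week 4. The drug was dissolved with 0.5% CMC-Na and 0.4% Tween-80. What the controls ate and were injected with, and the strain, sex and age of any animal, are not in the labels, so such differences and the drug cannot be told apart. Whether every library came from its own animal is not stated, so p-values measure the spread between libraries, which may be technical.

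In a healthy adult liver hepatocytes make keratin 8 and keratin 18 almost alone, while cholangiocytes add keratins 7 and 19. EPCAM is an adhesion protein of bile duct epithelium, and SOX9 is a transcription factor of bile ducts and of hepatocytes that take on duct traits. Keratin 23 is known as a stress-inducible keratin of diseased liver. Mesothelial cells, the thin covering of the liver, also make keratins 7, 8, 18 and 19, so none of these genes marks a single cell type. In bulk RNA, fewer cells of a type and less RNA per cell cannot be told apart.

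Depth was similar in all libraries, at 16787561 to 19887539 counts. The TMM factors of edgeR, which correct for library composition, ran from 0.804 to 0.879 in 3 resmetirom libraries and from 1.06 to 1.16 in the other 5. Levels below are CPM, a gene's counts relative to its library's total scaled with these factors, unless TPM, the authors' unit that also corrects for transcript length, is named. Over all tested genes the median change (log2) was -0.0043 with TMM, -0.31 if libraries were scaled by their totals alone and -0.41 in log2(TPM + 1). Changes are therefore read relative to the TMM scaling, and scalings that move a member are named beside it.

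Krt23 differed most. It stood at 15.7, 15.1, 29.3 and 14.3 CPM in control replicates 1 to 4, and at 0.451, 0.909, 0.266 and 0.813 CPM in resmetirom replicates 1 to 4. Every control library was above every resmetirom library, and control replicate 3 was high within its group. Behind these levels were 1584 counts over the controls and 38 over the resmetirom libraries. The group means were 18.6 ± 7.13 and 0.610 ± 0.302 CPM (SD, n = 4 each), and the fitted log2 fold change was -4.93 (SE 0.37), 30.4-fold lower with resmetirom. Of all 12207 tested genes, it had the 4th most negative change. In the authors' deposited table the log2 ratio of mean TPM for Krt23 was -5.43. Leaving out any 1 library gave -5.18 to -4.62.

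**Figure D1:**
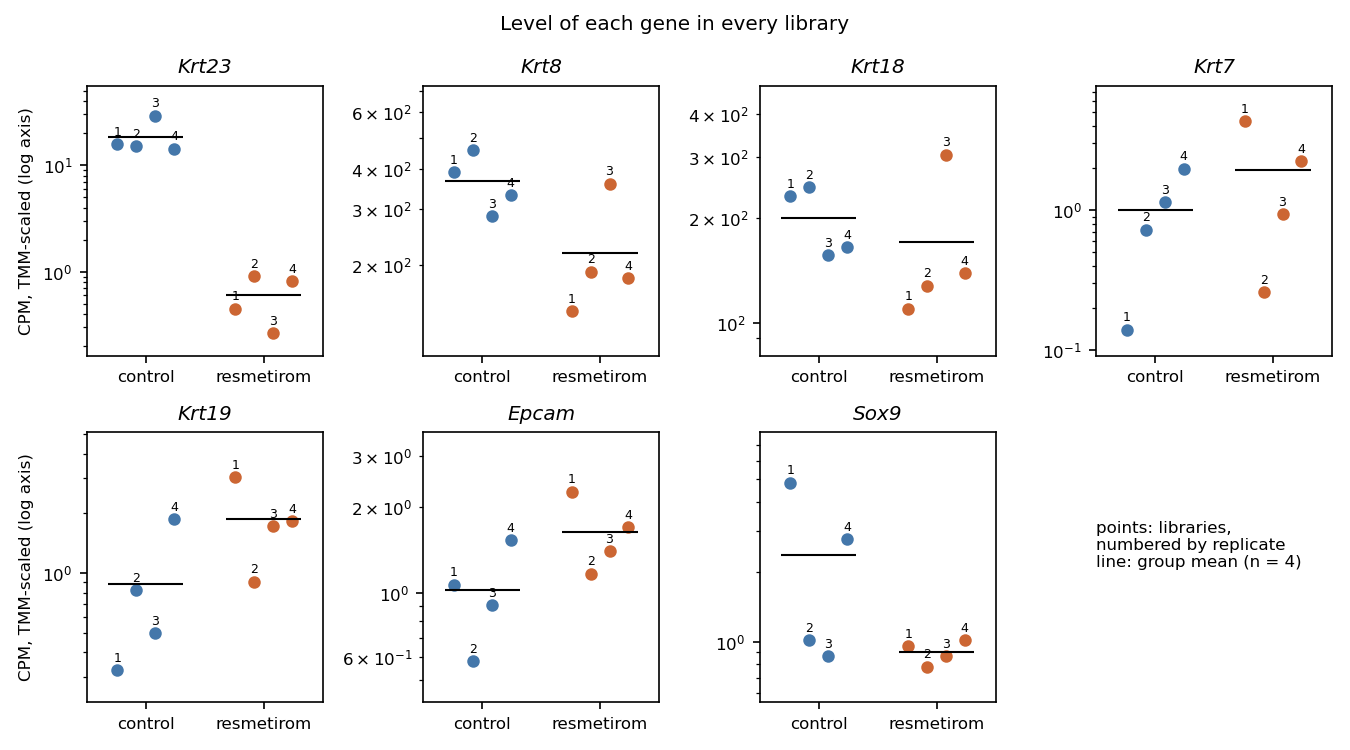
Level of each of the 7 genes in every library, in TMM-scaled CPM on a log axis with a range of its own in each panel; points are libraries numbered by replicate and lines are group means (n = 4). The groups are apart for Krt23 (14.3 CPM or more against 0.909 or less) and overlap for the other 6 genes, and resmetirom replicate 3 lies among the controls for Krt8 and above them for Krt18.

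The hepatocyte pair was lower on average, with overlap. Krt8 was at 391, 456, 285 and 330 CPM in the controls and at 144, 191, 359 and 183 CPM in the resmetirom libraries. Resmetirom replicates 1, 2 and 4 lay below every control, and replicate 3 lay within the control range. Group means were 366 ± 74.3 and 219 ± 95.7 CPM (SD, n = 4 each), with a log2 fold change of -0.74 (SE 0.29). Krt18, the partner of Krt8 in the same filaments, was at 232, 246, 156 and 165 CPM in the controls and at 110, 128, 305 and 139 CPM with resmetirom. Replicate 3 of the resmetirom group was the highest of all 8 libraries for Krt18, while the other 3 of that group were the lowest. Its log2 fold change was -0.23 (SE 0.35).

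Resmetirom replicate 3 moved both values. Without resmetirom replicate 3 the log2 fold change was -1.08 (SE 0.17) for Krt8 and -0.67 (SE 0.17) for Krt18, while that of Krt23 was -4.69 (SE 0.37). For Krt18 the change was -0.58 when scaled by totals alone and -0.83 in log2(TPM + 1). Leaving out control replicate 1 or 2 gave -0.15 and -0.12, and leaving out resmetirom replicate 1, 2 or 4 gave -0.07, -0.12 and -0.14. For Krt8 the log2(TPM + 1) scale gave -1.30.

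**Figure D2:**
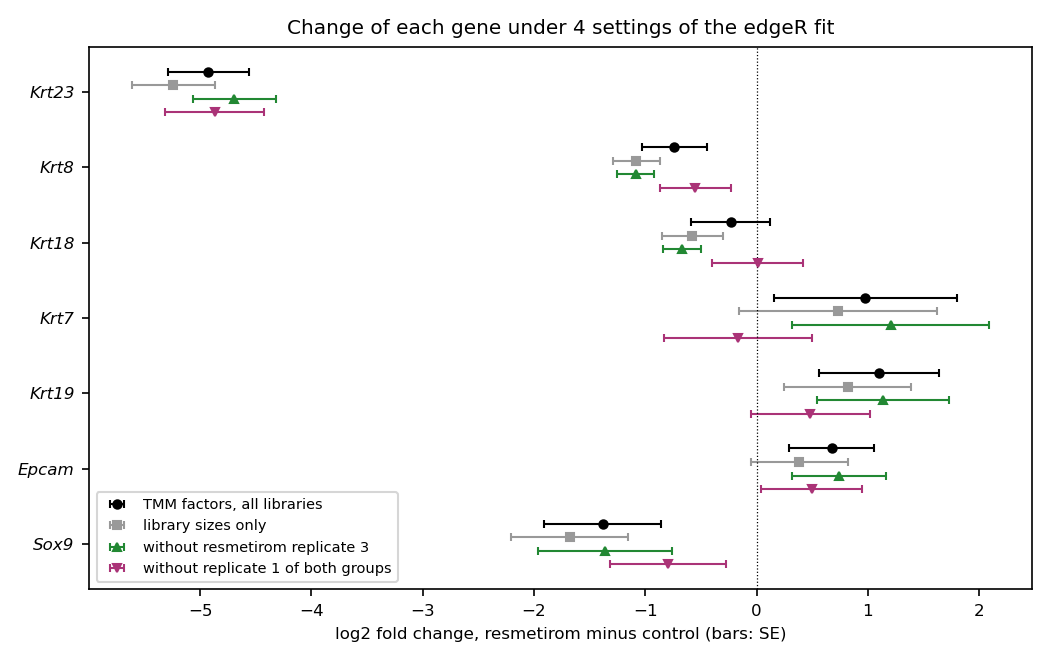
Log2 fold change, resmetirom minus control, of each gene (horizontal axis, bars are SE) under 4 settings of the edgeR fit. Krt23 stays between -5.24 and -4.69 in these settings, whereas Krt18 runs from -0.67 to 0.0084 and Krt7 from -0.17 to 1.21.

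Krt23 made up a smaller share of keratin transcripts with resmetirom. In TPM, which allows genes to be compared, the controls held 346 ± 59.5 of Krt8, 258 ± 48.6 of Krt18 and 22.3 ± 8.97 of Krt23 (SD, n = 4). The resmetirom libraries held 142 ± 41.3, 150 ± 58.1 and 0.515 ± 0.241. TPM is not TMM-scaled, and the median of all tested genes was -0.41 in log2(TPM + 1), so these means compare genes and not groups. Krt23 made up 2.70%, 2.32%, 6.78% and 3.08% of the summed TPM of all 54 keratin genes in control replicates 1 to 4, and 0.186%, 0.304%, 0.0426% and 0.268% in resmetirom replicates 1 to 4. Krt8 and Krt18 together made up 95.5% ± 2.24 of that sum in the controls and 97.8% ± 1.13 with resmetirom. For each TPM of Krt23 there were 7.79 to 24.1 of Krt8 in the control libraries and 168 to 1079 in the resmetirom libraries.

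The balance within the hepatocyte pair also differed. The ratio of Krt8 to Krt18 in TPM was 1.24, 1.36, 1.34 and 1.47 in the controls and 0.962, 1.10, 0.864 and 0.964 with resmetirom, so the groups did not overlap. Group means were 1.35 ± 0.0956 and 0.972 ± 0.0958 (SD, n = 4 each). Resmetirom replicate 3, the library with the most Krt8 and Krt18 of its group, had the lowest ratio. A ratio within a library does not depend on how libraries are scaled, but it comes from the same contrast and has no test.

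**Figure D3:**
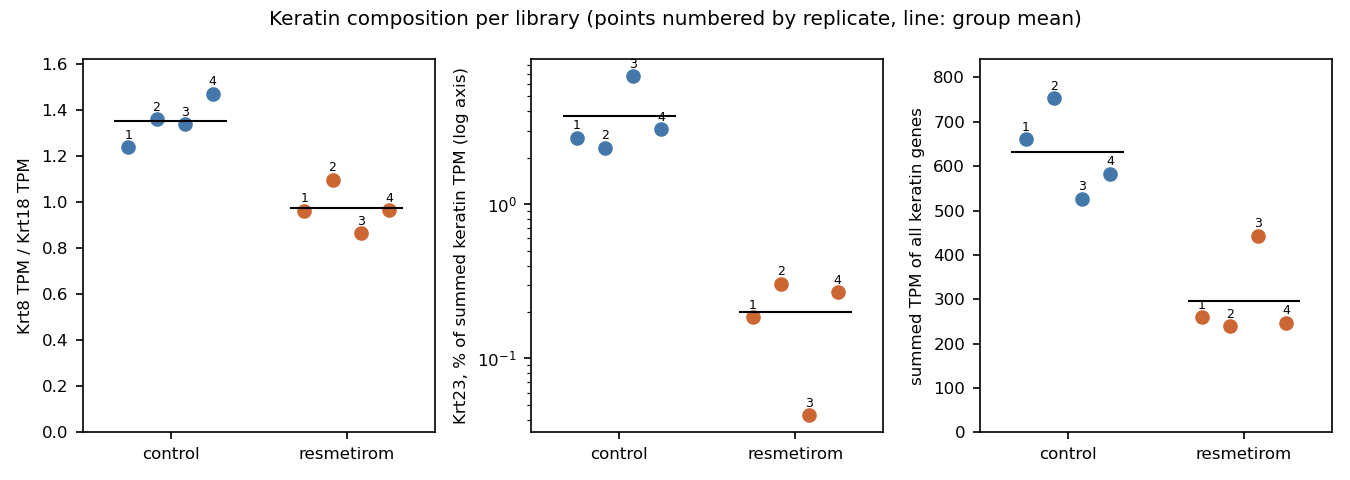
Ratio of Krt8 to Krt18, share of Krt23 in the summed keratin TPM (log axis) and summed TPM of all keratin genes, per library; points are numbered by replicate and lines are group means (n = 4). The ratio lies between 1.24 and 1.47 in the controls and between 0.864 and 1.10 with resmetirom, and the Krt23 share is 2.32% or more against 0.304% or less. The summed TPM is not TMM-scaled, and the median change of all tested genes was -0.41 in log2(TPM + 1).

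Krt23 lies in another keratin cluster than Krt8 and Krt18. Krt23 (ENSMUSG00000006777) is on the minus strand of chromosome 11 at 99477974 to 99493137 (mm10), in the type I cluster that also holds Krt19 (100140810 to 100148665). Krt8 (ENSMUSG00000049382, chromosome 15, 101996698 to 102004482, minus strand) and Krt18 (ENSMUSG00000023043, chromosome 15, 102028180 to 102032027, plus strand) are neighbours 23.7 kb apart in the type II cluster, where Krt18 is the type I exception. Within 250 kb of Krt23 the table lists 32 other genes, mostly keratin and hair keratin-associated genes, and 28 of them had no counts in any library. The 2 tested neighbours were Krt10, a keratin of stratified epithelia, at 0.34 (SE 0.34, edgeR adjusted p = 0.681), and Smarce1, a chromatin remodelling subunit, at 0.11 (SE 0.11, edgeR adjusted p = 0.708). Next to the pair on chromosome 15, Eif4b, a translation initiation factor gene 41.7 kb from Krt18, was at 0.04 (SE 0.08, edgeR adjusted p = 0.875). The other tested neighbours within 100 kb of Krt18 were Tns2, a tensin gene, at -0.45 (SE 0.15, edgeR adjusted p = 0.137) and Spryd3 at 0.18 (SE 0.14, edgeR adjusted p = 0.606). Smarce1, Eif4b, Tns2 and Spryd3 were picked by position.

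The start regions of Krt23 and of the hepatocyte pair are printed here to let the letters of the keratin genes set against each other be compared. Each window, from RefSeq on GRCm38.p6, runs from 250 bases before to 50 after the RefSeq start, 5′ to 3′ on the gene's strand: chr11:99493071-99493370 (minus) for Krt23, chr15:102004293-102004592 (minus) for Krt8 and chr15:102027966-102028265 (plus) for Krt18. Windows were matched for 5 of the 7 genes, these and Krt7 and Epcam. The RefSeq start of Krt8 lies 140 bases downstream of the 5′ end of the GENCODE gene model, that of Krt18 36 and that of Krt23 17. Capitals mark matches, on either strand, to any of 7 short motifs. The first was AGGTCA, the core half-site of many nuclear receptors, thyroid hormone receptors among them. CACGTG is the letters of an E-box, which basic helix-loop-helix factors bind. TATAAA is the core promoter element that positions the start of transcription. Proximal promoter elements were searched as CCAAT and, for factors of the Sp family, as GGGCGG. For AP-1 factors the letters were TGANTCA. The sterol regulatory element was searched as TCACNCCAC.
Krt23: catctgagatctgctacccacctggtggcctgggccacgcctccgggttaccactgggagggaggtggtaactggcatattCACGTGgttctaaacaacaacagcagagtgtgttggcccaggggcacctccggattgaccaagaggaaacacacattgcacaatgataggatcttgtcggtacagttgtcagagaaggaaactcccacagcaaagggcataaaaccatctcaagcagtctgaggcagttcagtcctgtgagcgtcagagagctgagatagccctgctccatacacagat
Krt8: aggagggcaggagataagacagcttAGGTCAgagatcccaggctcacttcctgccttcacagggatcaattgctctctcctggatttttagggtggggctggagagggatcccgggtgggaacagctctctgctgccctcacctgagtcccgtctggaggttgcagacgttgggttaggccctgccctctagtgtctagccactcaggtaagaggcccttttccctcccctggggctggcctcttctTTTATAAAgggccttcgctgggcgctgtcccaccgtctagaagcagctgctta
Krt18: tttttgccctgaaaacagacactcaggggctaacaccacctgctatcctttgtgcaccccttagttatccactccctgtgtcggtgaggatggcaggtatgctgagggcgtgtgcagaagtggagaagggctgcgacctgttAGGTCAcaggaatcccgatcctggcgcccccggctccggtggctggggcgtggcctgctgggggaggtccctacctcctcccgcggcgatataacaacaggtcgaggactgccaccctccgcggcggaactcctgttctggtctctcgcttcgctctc

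Krt8 and Krt18 each hold 1 AGGTCA, with its first base at -225 and -108 from the RefSeq start. Krt7 holds one as well, at 16 after its RefSeq start, which lies 1360 bases downstream of the 5′ end of its GENCODE gene model. AGGTCA occurs in 16.3% of the 32817 promoter windows of this table, so 3 of 5 matched genes is a description of few sequences. The 2 TATAAA matches in Krt8 are on opposite strands and overlap, and the motif is in 13.6% of windows. Their first bases are at -3 and -1, so they lie across the RefSeq start and not upstream of it. Krt23 holds CACGTG at -169, a motif that 7.15% of windows share, and no AGGTCA in these letters. CCAAT (37.4% of windows), TGANTCA (7.81%) and TCACNCCAC (1.24%) matched none of the 5 windows, and GGGCGG (35.6%) matched only Krt7 and Epcam among them. A match does not show a bound site.

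The biliary genes were rare transcripts, with 12 to 104 counts per library for Sox9, 3 to 77 for Krt7, 7 to 54 for Krt19 and 12 to 40 for Epcam. In TPM the 4 had control means of 0.499 for Krt7, 1.06 for Sox9, 1.07 for Krt19 and 1.10 for Epcam, levels whose ranges over libraries overlapped. With resmetirom Krt23, at 0.515 TPM, lay in the range of these biliary transcripts, while in the controls it was 7.66 to 58.9 times the TPM of Krt19 in the same library.

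Sox9 (ENSMUSG00000000567, chromosome 11, 112782224 to 112787760) was at 4.84, 1.02, 0.863 and 2.77 CPM in control replicates 1 to 4 and at 0.958, 0.779, 0.866 and 1.02 CPM with resmetirom. Control replicates 1 and 4 were high, and the other 2 controls lay in the resmetirom range. Its log2 fold change was -1.38 (SE 0.53), and without control replicate 1 it was -0.77. On the log2(TPM + 1) scale it was -0.59.

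The other 3 biliary genes had higher means with resmetirom and overlapping groups. Krt19 (ENSMUSG00000020911) was at 0.326, 0.822, 0.500 and 1.88 CPM in the controls and at 3.04, 0.909, 1.73 and 1.83 CPM with resmetirom, a log2 fold change of 1.10 (SE 0.54). Krt7 (ENSMUSG00000023039, chromosome 15, 101411043 to 101430313) was at 0.140, 0.726, 1.14 and 1.98 CPM in the controls and at 4.34, 0.260, 0.932 and 2.24 CPM with resmetirom, a change of 0.98 (SE 0.82). Epcam (ENSMUSG00000045394, chromosome 17, 87635979 to 87651129) was at 1.07, 0.581, 0.909 and 1.53 CPM in the controls and at 2.25, 1.17, 1.40 and 1.69 CPM with resmetirom, a change of 0.67 (SE 0.38). All 3 were highest in resmetirom replicate 1, and Krt7 and Krt19 were lowest in control replicate 1. On the log2(TPM + 1) scale the changes were 0.37 for Krt19, 0.18 for Krt7 and 0.10 for Epcam. Without control replicate 4 they were 1.77 for Krt19 and 1.54 for Krt7, and without resmetirom replicate 1 that of Krt7 was 0.20. Scaling by library sizes only gave 0.38 for Epcam.

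Markers of mesothelium varied widely across libraries, and Krt7 varied with them. The summed level of 6 mesothelial markers (Msln, Upk3b, Upk1b, Wt1, Lrrn4 and Gpm6a) was 3.35, 8.66, 19.2 and 33.0 CPM in control replicates 1 to 4 and 66.5, 11.1, 17.2 and 26.1 CPM in resmetirom replicates 1 to 4. None of the 6 was called in either direction by edgeR, 0 had an unadjusted p under 0.05 and DESeq2 called 0. The log2 changes of all 6 were above 0, from 0.42 for Wt1 to 1.47 for Lrrn4, with a median of 0.95 that was 0.19 without resmetirom replicate 1 and -0.18 without replicate 1 of both groups. Upk1b had no counts in control replicate 1, and the other 5 were detected in every library. Over the 8 libraries, log2 CPM of Krt7 correlated with the log2 sum at Pearson r = 0.94 (exact permutation p = 0.000794, Benjamini-Hochberg adjusted over 6 genes 0.00476) and Spearman rho = 0.95 (exact permutation p = 0.00114, adjusted 0.00685). Without the 2 libraries farthest from the median, control replicate 1 and resmetirom replicate 1, r was 0.83 over 6 libraries (exact permutation p = 0.0444). For Krt19, r was 0.86 (exact permutation p = 0.00660, adjusted 0.0198) and rho 0.86 (exact permutation p = 0.0107, adjusted 0.0321). Without those 2 libraries its r was 0.56 (exact permutation p = 0.264). They also held the lowest and the highest Krt19, so leaving them out narrows the range. Over 6 libraries it is not decided whether the relation holds without them.

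For the other members no adjusted p was under 0.05. Epcam had r = 0.70 (exact permutation p = 0.0595, adjusted 0.119) and rho = 0.79 (exact permutation p = 0.0279, adjusted 0.0559), with r = 0.78 without the same 2 libraries. Sox9 had r = -0.44 (exact permutation p = 0.288, adjusted 0.288) and rho = -0.05 (exact permutation p = 0.935, adjusted 0.935), with r = 0.63 without them. Krt8 had r = -0.64 (exact permutation p = 0.0802, adjusted 0.120) and rho = -0.74 (exact permutation p = 0.0458, adjusted 0.0688), with r = -0.26 without them. Krt18 had r = -0.59 (exact permutation p = 0.131, adjusted 0.157) and rho = -0.55 (exact permutation p = 0.171, adjusted 0.205), with r = -0.28 without them. All tests were two-sided and shuffled libraries across both groups. The relation was looked for after the values were seen, so the p-values and their adjustment do not cover that search. Each group alone has too few libraries for a correlation. For Krt23 no correlation is given because its libraries form 2 separate clusters.

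**Figure D4:**
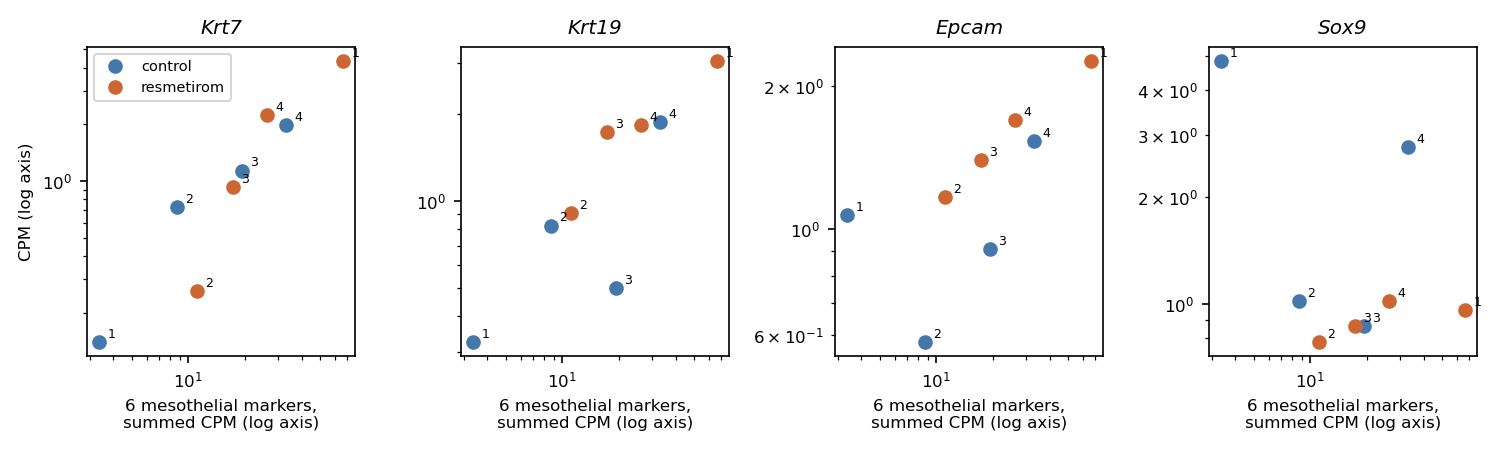
CPM of Krt7, Krt19, Epcam and Sox9 (vertical, log axis) against the summed CPM of 6 mesothelial markers (horizontal, log axis) in the 8 libraries, numbered by replicate and coloured by group. Krt7 climbs with the sum from 0.140 CPM at a sum of 3.35 to 4.34 CPM at a sum of 66.5, whereas Sox9 is highest at the lowest sum.

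Control replicate 1 and resmetirom replicate 1 had the lowest and the highest mesothelial sum, and also the lowest and the highest level of Krt7 and of Krt19. Leaving both out therefore had to lower the changes of Krt7 and Krt19, and nothing is read from that. Without them the log2 fold change was -0.17 (SE 0.66) for Krt7, 0.48 (SE 0.53) for Krt19, 0.49 (SE 0.45) for Epcam and -0.80 (SE 0.52) for Sox9. Krt18 moved to 0.0084 (SE 0.41) and Krt8 to -0.55 (SE 0.32), and Krt23 stood at -4.87 (SE 0.45). The part of mesothelial RNA in the levels of Krt7 and Krt19 was not tested.

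Over all genes, edgeR's quasi-likelihood test with Benjamini-Hochberg adjustment called 317 genes higher and 243 lower with resmetirom at an adjusted p under 0.05, or 4.59% of those tested, and the groups did not overlap in 11.8%. By direction, 2.6% were called higher and 1.99% lower, and the groups were apart with resmetirom higher in 6.32% and lower in 5.5%. Scaled by library totals alone, the calls were 151 higher and 1961 lower. Among the 7 members 1, Krt23, was called and 1, Krt23 again, had groups that did not overlap. Since the members were chosen with this contrast known, nothing is read from these counts. Krt8 was also among the calls with DESeq2 and without resmetirom replicate 3, Krt8 and Sox9 when libraries were scaled by totals alone, and Krt8, Krt18 and Sox9 in both TPM analyses. The median change of the 7 was -0.23 against -0.0043 for all tested genes.

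The 5 genes whose log2 CPM followed Krt23 most closely over the 8 libraries, by Pearson r, were Hnmt (histamine N-methyltransferase, r = 0.987), Cyp2d9 (a cytochrome P450, r = 0.983), Abcg5 (part of the biliary sterol transporter, r = 0.982), Abcc3 (a basolateral efflux pump for organic anions, r = 0.980) and Cyp4v3 (a fatty acid hydroxylase, r = 0.980). Reads of Cyp2d9 may be shared with near-identical Cyp2d genes, so its counts are uncertain. All 5 have groups that do not overlap, and any gene that is lower in every resmetirom library scores high on this measure. Their sizes of change differed, from -2.86 (SE 0.14) for Cyp2d9 and -2.80 (SE 0.22) for Abcc3 through -1.64 (SE 0.08) for Abcg5 and -0.98 (SE 0.10) for Hnmt to -0.25 (SE 0.08) for Cyp4v3. The change of Krt23 was the most negative of these 6.

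The rest of the keratin family was almost silent. Of 49 other keratin genes listed, 41 had no counts in any library, and of the 8 with counts 1, Krt10, was tested. Krt10 had 15 to 29 counts per library, 1.12 ± 0.308 CPM in the controls and 1.42 ± 0.157 CPM with resmetirom (SD, n = 4 each), and its sign turned to -0.17 on the log2(TPM + 1) scale and -0.24 on the log2(TPM + 0.1) scale. Krt20, Krt17, Krt15 and Krt6a, keratins of gut or stratified epithelia, were at 0 counts. Of 8 tested genes of other intermediate filaments, edgeR called 0, with 1 at an unadjusted p under 0.05 and 0 called by DESeq2. The median change of these filament genes was -0.18, against -0.0043 for all tested genes. That gene was Nes, the filament nestin, at -0.87 (SE 0.36, edgeR adjusted p = 0.223), called if resmetirom replicate 3 was left out, if libraries were scaled by totals alone, and in both TPM analyses. The mesenchymal filament Vim was at -0.14 (SE 0.26).

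Of 12 genes for proteins that anchor keratin to cell junctions or gather with it in inclusions, 3 fell and 0 rose by edgeR. DESeq2 gave the same counts, 0 rose at an unadjusted p under 0.05, and the median was -0.22. Over all tested genes edgeR called 1.99% lower and 2.6% higher, and the median change was -0.0043. The lists here and below stand beside these shares, and no set test was run. Dsp encodes desmoplakin, the protein that ties keratin to desmosomes. Its mean was 60.0 ± 8.78 CPM in the controls and 39.0 ± 2.58 with resmetirom (SD, n = 4 each). It fell by 0.62 on the log2 scale (SE 0.12, edgeR adjusted p = 0.00813) and was called in every alternative run. The desmosomal cadherin gene Dsc2, whose groups overlapped, fell by 0.74 on the log2 scale (SE 0.18, edgeR adjusted p = 0.0421) and Tgm2, a transglutaminase that cross-links keratin, fell by 0.44 (SE 0.11, edgeR adjusted p = 0.0494). Both calls were marginal. With upper-quartile factors, with the replicate block and on leaving out any of control replicates 2 to 4 or resmetirom replicate 2 or 4, neither was called. The Dsc2 call was also lost without resmetirom replicate 1 or 3, and that of Tgm2 without control replicate 1, alone or together with resmetirom replicate 1. In these settings the edgeR adjusted p was 0.0520 to 0.154 for Dsc2 and 0.0506 to 0.137 for Tgm2. Sqstm1, which encodes the inclusion protein p62, was at -0.24 (SE 0.12, edgeR adjusted p = 0.332).

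Of 10 tested genes among the other cholangiocyte markers, edgeR called 1 higher and 0 lower, as did DESeq2, 2 were higher and 0 lower at an unadjusted p under 0.05, and the median was 0.02. That median was -0.26 when scaled by totals alone, -0.16 in log2(TPM + 1) and -0.06 without resmetirom replicate 1. The gene that rose was Atp1b1, a sodium pump subunit, with means of 33.2 ± 1.31 CPM in the controls and 51.6 ± 7.61 with resmetirom (SD, n = 4 each) and a log2 change of 0.64 (SE 0.11, edgeR adjusted p = 0.00629). The call was lost with scaling by totals alone (edgeR adjusted p = 0.0758) and in both TPM analyses (limma adjusted p = 0.490 with a pseudocount of 1 and 0.489 with 0.1). Spp1, osteopontin, had 0.43 (SE 0.23), and Pkhd1, fibrocystin, -0.08 (SE 0.23). The duct genes Cftr, Sctr and Cldn4 had 0 to 7 counts in every library. The summed level of this list was 129 to 165 CPM in the controls and 158 to 194 CPM with resmetirom. Control replicate 1, the library with the most Sox9, had the highest sum of the controls. The same library had the least Krt7 and Krt19 of all libraries, at 0.140 and 0.326 CPM.

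Among 13 tested genes of the Notch and YAP pathways, which act upstream of Sox9 in liver, edgeR called 1 lower and 0 higher. DESeq2 gave the same counts, 2 were lower and 1 higher at an unadjusted p under 0.05, and the median was -0.03. The gene that fell was Wwtr1, which encodes TAZ, the YAP paralogue. It stood at 25.8, 31.8, 31.5 and 28.5 CPM in the controls and at 19.4, 15.7, 15.0 and 14.9 CPM with resmetirom, a change of -0.85 (SE 0.12, edgeR adjusted p = 0.00173), and it was called in every alternative run. Yap1 was at 0.16 (SE 0.15), the Notch target Hes1 at -0.37 (SE 0.22) and the ligand gene Jag1 at -0.44 (SE 0.28). Other Notch genes were above 0, with Notch1 at 0.27 (SE 0.20) and Heyl at 0.43 (SE 0.49). Notch2 was at 0.30 (SE 0.11, edgeR adjusted p = 0.175), and its groups did not overlap. Of 7 tested progenitor and oncofetal genes, Lgr5, a Wnt-associated receptor, rose by edgeR at 1.15 (SE 0.29, edgeR adjusted p = 0.0454). Its call was lost in 10 of 16 alternatives, namely scaling by totals, both TPM analyses, the replicate block and leaving out control replicate 2, 3 or 4 or resmetirom replicate 2, 3 or 4, with adjusted p from 0.0650 to 0.145. The calls lower numbered 0 by edgeR, by DESeq2 and at an unadjusted p under 0.05. The oncofetal gene Gpc3 ran from 0.0931 CPM in control replicate 1 to 23.4 CPM in resmetirom replicate 1, the order of the mesothelial sum at both ends.

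**Figure D5:**
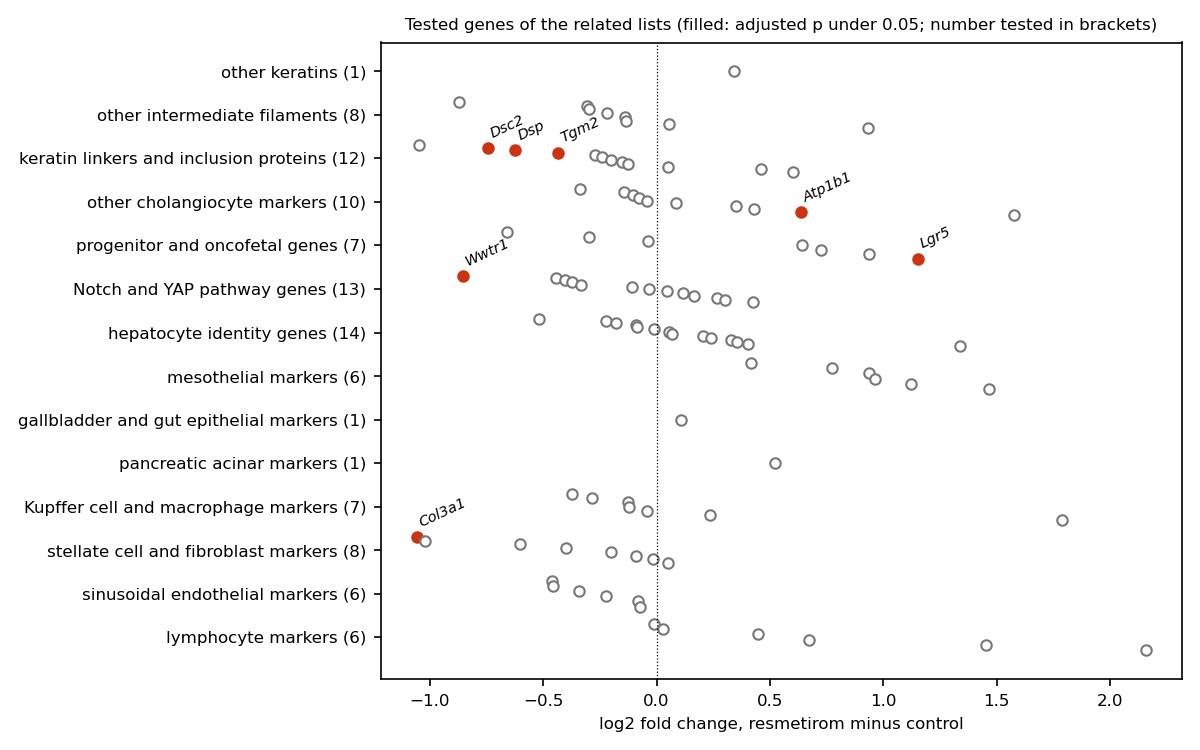
Log2 fold change, resmetirom minus control, of the 100 tested genes of the 14 related lists (horizontal axis), with the number tested in brackets; filled points passed an edgeR adjusted p under 0.05. The 7 filled points are Dsp, Dsc2, Tgm2, Wwtr1 and Col3a1 below 0 and Atp1b1 and Lgr5 above 0. Over all tested genes 4.59% were called in either direction.

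Hepatocyte identity genes were abundant in all libraries. Their median log2 change was 0.06 with TMM, -0.25 when scaled by totals alone and -0.40 in log2(TPM + 1), so its sign depended on the scaling. Of these 14 genes edgeR called 0 (4 higher and 1 lower at an unadjusted p under 0.05, and 3 and 1 by DESeq2). Foxa1, a hepatic pioneer factor, had the smallest p at -0.52 (SE 0.14, edgeR adjusted p = 0.0546). Of 8 tested stellate cell and fibroblast markers 1 was called lower, Col3a1 at -1.06 (SE 0.25, edgeR adjusted p = 0.0474), a call lost with upper-quartile factors, with no low-count filter and when control replicate 1, 3 or 4 was left out or any of resmetirom replicates 2 to 4 (edgeR adjusted p 0.0583 to 0.144). EdgeR called 0 genes in the lists of macrophages (7 tested, 0 at an unadjusted p under 0.05, 0 by DESeq2), sinusoidal endothelium (6 tested, 2 lower at an unadjusted p under 0.05, 0 by DESeq2) and lymphocytes (6 tested, 2 higher at an unadjusted p under 0.05, 1 by DESeq2). In these lists the smallest p belonged to Marco at 1.79 (SE 0.78, edgeR adjusted p = 0.303), Stab2 at -0.46 (SE 0.15, edgeR adjusted p = 0.117) and Nkg7 at 2.16 (SE 0.65, edgeR adjusted p = 0.0897). The median log2 change was -0.12 for the macrophage list, -0.28 for sinusoidal endothelium and 0.56 for lymphocytes. Without control replicate 3 the macrophage median was 0.04, and without resmetirom replicate 1 the lymphocyte median was -0.09. Summed levels in the control and resmetirom libraries overlapped for all 3 lists. Of the gut and gallbladder markers Cdx2 and Muc5b were at 0, and Fabp2, which hepatocytes also express, was the only one tested at 0.11 (SE 0.08, edgeR adjusted p = 0.557). Of the acinar markers Cel, Pnlip and Prss2 were at 0, and Cela1 was the only one tested at 0.52 (SE 0.19, edgeR adjusted p = 0.166).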

How the data were processed

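Per the labels' protocols, liver mRNA was captured with oligo(dT) beads, and 1 of 2 sequencer models was used. Tools listed in the submitters' processing notes, without roles, are HISAT2 2.1.0 and Bowtie2 2.2.8 (aligners), RSEM and StringTie 1.3.1, fastp 0.18.0, edgeR and DESeq2, with the build mm10. No source used here gives strand handling, so overlapping or antisense reads could not be told apart. Per the file headers, the authors deposited whole-number counts and TPM per library, and group means of TPM. The authors' table also holds a log2 ratio of those means and p-values, with no tool named. Column names matched the sample titles and 0 per-sample columns were left unmatched.

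The main test of the counts used edgeR 4.0.16 (R 4.3.3, filterByExpr, TMM factors, robust quasi-likelihood fits, Benjamini-Hochberg adjustment over 12207 genes). Its procedure was tried on simulated data. The simulated libraries shared the control mean and the same spread for every gene, apart from planted changes. They held no scaling difference between groups, so the trial cannot speak for calls that depend on scaling. SEs are the log2 change over the root of the F statistic. Alternatives used DESeq2 1.42.0, limma 3.58.1 on log2(TPM + 1) and log2(TPM + 0.1), other scalings and filters, and left-out libraries. Members, lists and rules were chosen with earlier results of these data known. Named genes were, by rule, the 7 members. Of each of 14 lists the rule took up to 4 called genes or else the gene with the smallest p. It also took the 5 genes most like Krt23 at a mean level of 1 CPM or more, compared as log2 CPM (prior count 2). Values are also given for genes outside this rule, among them Vim, Sqstm1, Spp1, Pkhd1, Yap1, Hes1, Jag1, Notch1, Notch2 and Heyl. Gpc3, Hspb1, Hnf4a, Ppl and Tnfrsf12a are outside it as well. No fixed rule chose these, and genes with larger changes in the same lists can be unnamed. H19, 1 gene of the lists, was not matched and is not analysed here. Positions are those of GENCODE M21 (GRCm38, the same assembly as mm10). Libraries of 1 group differed beyond counting error, with a chi-square per degree of freedom of 13.8 or more in every pair.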

Additional observations from a re-analysis of the deposited data

Results flagged for a closer look

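In groups of 4 libraries, a library was marked when its gap to the nearest of the others was too large a part of the group's range (above the 95% critical value of Dixon's test). Over 64 groups 6 were marked, and chance marks about 1 in 20 groups. Krt23 in control replicate 3, at 29.3 CPM, stood above the other controls at 14.3 to 15.7. Krt18 in resmetirom replicate 3, at 305 CPM, stood above the other libraries of its group at 110 to 139. The ratio of Krt8 to Krt23 in TPM was 1079 in the same library, against 168 to 255 in the others, on 4 counts of Krt23. Lgr5 was at 6.53 CPM in resmetirom replicate 3, against 3.55 to 3.77. Marco, a macrophage receptor, was at 37.3 CPM in control replicate 3, against 14.0 to 15.6. The summed level of the other cholangiocyte markers was 165 CPM in control replicate 1, against 129 to 133 in the other controls.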

How the results depend on the processing

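Of 1216 comparisons of a result with its value under an alternative, 1025 kept direction and side of the threshold, or stayed within the allowed spread. Genes called higher over all genes numbered 317, against 151 with library sizes only, 532 with DESeq2, 123 with log2(TPM + 1), 122 with log2(TPM + 0.1) and 182 to 313 when 1 library was left out (182 without control replicate 4, 208 without resmetirom replicate 4). Genes called lower numbered 243, against 1961, 411, 4648, 4608 and 149 to 238 (149 and 161 without the same libraries), and 248 without replicate 1 of both groups. Members called lower numbered 1, against 3, 2, 4 and 4 in the same order and 1 to 2 when 1 library was left out. Genes of the fixed lists called higher numbered 2, against 0 with library sizes only, 6 with DESeq2, 0 on both log2(TPM) scales, 1 with the replicate block and 1 to 2 when 1 library was left out. Those called lower numbered 5, against 17 with library sizes only, 2 with upper-quartile factors, 3 with the replicate block, 30 on both log2(TPM) scales and 2 to 6 when 1 library was left out. Krt23 was at -3.89 on the log2(TPM + 1) scale, Krt8 at -1.30 and -1.31 and Krt18 at -0.83 on both TPM scales, and leaving out 1 library gave -5.18 to -4.62, -1.08 to -0.58 and -0.67 to -0.07. Without replicate 1 of both groups, an alternative chosen after seeing the data, Krt18 turned to 0.0084 and Krt7 to -0.17. Without control replicate 4 Krt7 was at 1.54. Krt10 turned to -0.17 and -0.24 on the TPM scales, and Fabp2 to -0.20 with library sizes only, -0.39 on log2(TPM + 1) and -0.40 on log2(TPM + 0.1). The cause of these shifts was not tested. The median change of all tested genes was -0.31 with library sizes only, -0.41 on log2(TPM + 1) and -0.50 on log2(TPM + 0.1). Each turned value of Krt10 and Fabp2 lay above the median of its own setting. Between same-numbered libraries the r of deviations from the group means was -0.33, 0.18, -0.19 and -0.06. The labels do not say that the numbers mark pairs, and these r cannot decide it with so few libraries. With the replicate block 240 genes were called higher and 166 lower. Counts of 3 to 104 per library limit the precision of Krt7, Krt19, Epcam and Sox9.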

Other observations

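Control replicate 1 and resmetirom replicate 3 were each the highest of their own group for Hspb1 and Hnf4a, seen after the values were known. Hspb1, a small heat shock protein gene, was at 209 CPM in control replicate 1 against 52.3 to 59.6 in the other controls, and at 107 CPM in resmetirom replicate 3 against 23.3 to 27.3. Hnf4a, a hepatocyte transcription factor gene, was at 619 CPM in control replicate 1 against 341 to 372, and at 903 CPM in resmetirom replicate 3 against 327 to 658. Resmetirom replicate 4, at 658 CPM, was thus above control replicate 1 for Hnf4a. In resmetirom replicate 3 Ppl, which encodes the keratin linker periplakin, was at 67.6 CPM against 8.38 to 14.7 in the rest of its group. Tnfrsf12a, the TWEAK receptor gene, was at 39.5 CPM there against 3.89 to 6.56. The controls were at 15.7 to 21.9 CPM for Ppl and at 8.01 to 9.36 for Tnfrsf12a, and control replicate 1 did not stand apart. Resmetirom replicate 3 is the library in which Krt8 and Krt18 were high, and Krt23, at 4 counts, was the lowest.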
